A study of Mus musculus with 13 samples.

Results

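A set of 10 genes that mark monocytes and tissue-resident macrophages was followed in mouse bone marrow hematopoietic stem and progenitor cells (HSPCs) of 4 genotypes: Ly6c2, Fn1, Adgre1, C1qa, C1qb, C1qc, Vcam1, Mertk, Spic and Cd68. They were the 10 rows with these symbols among the 55421 genes of the deposited tables, and 10 of 10 passed the filter on low counts that left 19289 genes for testing. Bulk RNA-seq libraries came from HSPCs labelled Setd2 knockout and Srsf2 mutated (called double mutant here, n = 3), Srsf2 mutated (n = 3), Setd2 knockout (n = 2) and WT (wild type, n = 2). Setd2 encodes the histone methyltransferase that makes H3K36me3, and Srsf2 encodes a splicing factor that is recurrently mutated in myelodysplastic syndromes. The protocol in the labels, written for 3 single-cell samples not analysed here, names the alleles Setd2fl/fl and Srsf2P95H/+ and the transgene Mx1-Cre, which pIpC injection switches on in blood-forming and other interferon-responsive cells, and which the wild type mice carry too. It describes Lin- c-Kit+ cells, a bone marrow transplant model and a time of 4 weeks after induction. For the bulk libraries neither the sort, the transplant, the time nor the age, strain and sex of the mice is given, and nothing says whether replicates came from separate mice, so p-values measure the spread between these libraries, which may be technical.

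Classical monocytes leave the bone marrow carrying the surface protein Ly6C, and those that settle in tissues can mature into macrophages. Resident macrophages of bone marrow and spleen engulf dying cells and aged red cells, recycle heme iron, and make C1q, the recognition part of the classical complement pathway. In blood-forming marrow, macrophages that carry F4/80 (the Adgre1 product) and VCAM1 also sit at the centre of erythroblastic islands, where red cell precursors mature. HSPCs and granulocyte-monocyte progenitors express some of these genes at low or moderate levels, so a bulk level does not by itself mark a mature cell. In bulk libraries, fewer cells of a type and less RNA per cell cannot be told apart.

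Library totals lay between 32117387 and 50445434 counted reads. Levels are given as CPM (the count scaled to a common library total) after TMM scaling, and differences as log2 fold changes with their standard errors from edgeR's quasi-likelihood test, with Benjamini-Hochberg adjustment over the 19289 tested genes and calls at an adjusted p under 0.05. Group means are given ± SD (n = 3 for double mutant and Srsf2 mutated, n = 2 for Setd2 knockout and wild type). On the second principal component Srsf2 mutated replicate 3 lay at -75.5, away from replicates 1 and 2 of that genotype at -36.9 and -42.5. Without it, the number of the 10 genes called remained 8 for Srsf2 mutated against wild type and 5 for double mutant against Srsf2 mutated. Whole-gene Setd2 counts averaged 130 CPM in double mutant, 197 in Srsf2 mutated, 222 in Setd2 knockout and 152 in wild type libraries, which does not check the deletion, since a whole-gene count includes the exons outside the deleted part. Xist, the RNA of the inactive X chromosome, averaged 7.41 CPM in double mutant, 1.78 in Srsf2 mutated, 0.598 in Setd2 knockout and 485 in wild type libraries. The Y-linked Ddx3y averaged 124 CPM in double mutant and 111 in Srsf2 mutated, and was at 0 in Setd2 knockout and wild type. Genotype and sex-linked state therefore cannot be told apart in the comparisons with wild type or with Setd2 knockout.

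**Figure D1:**
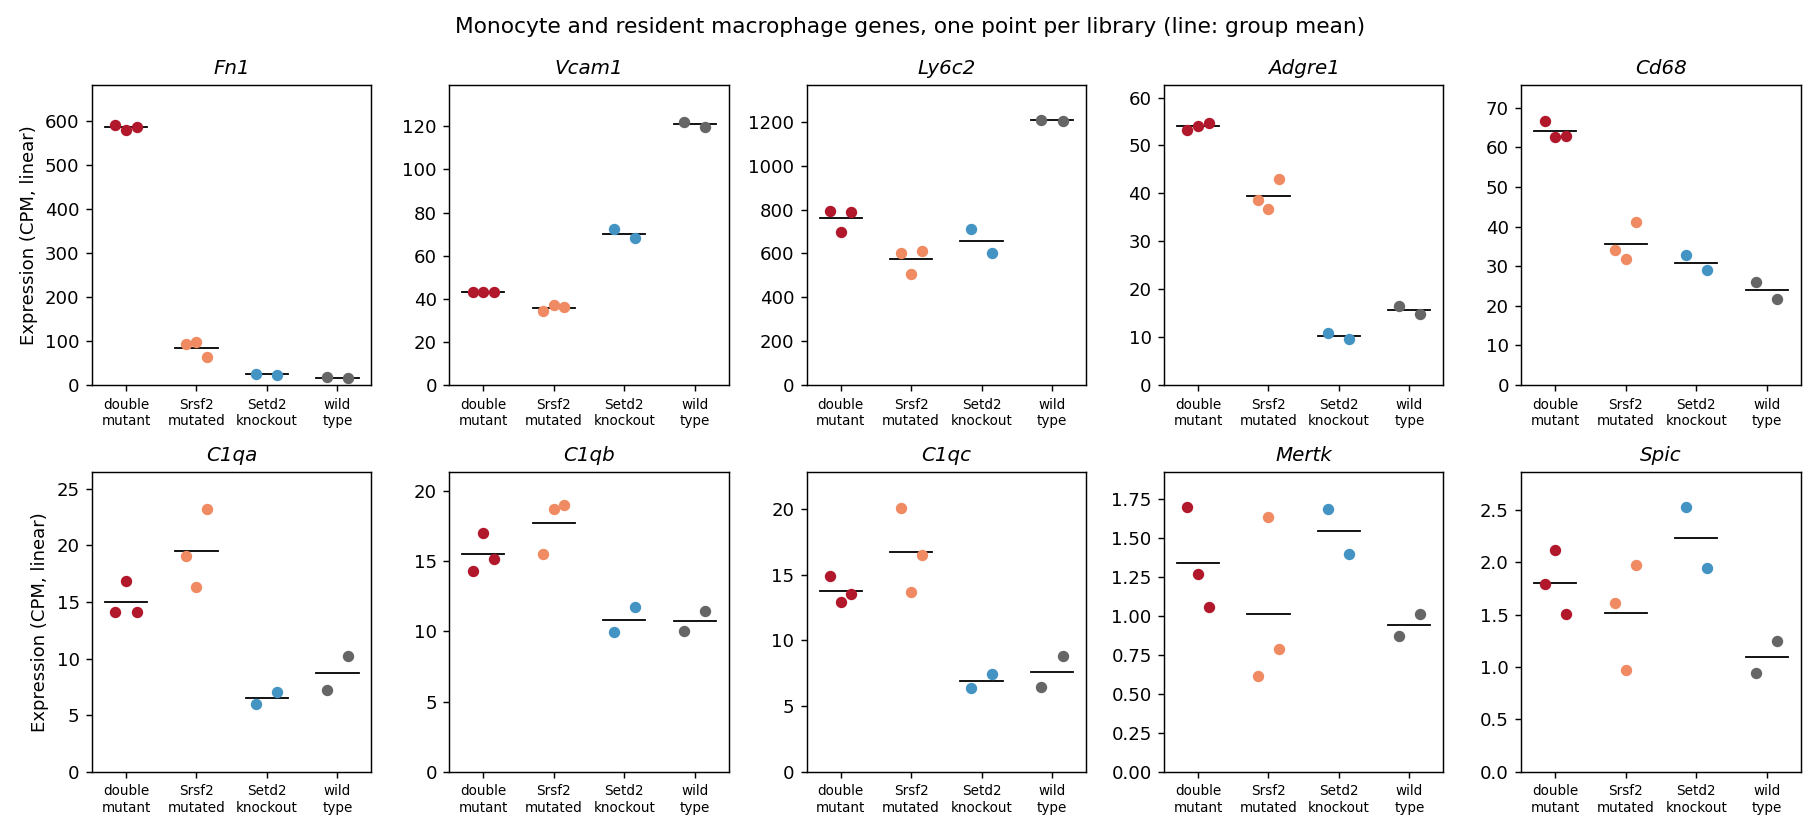
Level of each of the 10 genes in every library, in CPM on linear axes that start at 0, with 1 point per library and a line at the group mean, for double mutant, Srsf2 mutated, Setd2 knockout and wild type HSPCs. Fn1 reached 579 to 592 CPM in the double mutant libraries and 16.6 to 17.5 CPM in wild type, while Ly6c2 and Vcam1 were highest in wild type.

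Per length, as the authors' FPKM, Ly6c2 was the most abundant of the 10 transcripts in each library (245 to 277 FPKM in double mutant and 411 to 415 FPKM in wild type). Cd68 followed in the double mutant at 47.8 to 50.6 FPKM, next to Fn1 at 47.7 to 48.4 FPKM. In wild type, Cd68 stood at 16.1 to 19.6 FPKM, Vcam1 at 12.6 to 12.95 FPKM and Fn1 at 1.33 to 1.41 FPKM. Mertk and Spic were lowest in all 4 genotypes, between 0.145 and 0.719 FPKM over the 10 libraries.

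Against wild type, the double mutant had 6 of the 10 genes higher and 2 lower, and the groups did not overlap for 10 of 10. Of all tested genes 63.0% were called in this comparison (33.5% higher, 29.5% lower), so 8 of 10 is read against a large background, and libraries of these groups did not overlap for 76.8% of all tested genes. The Srsf2 mutated libraries also had 6 genes higher and 2 lower than wild type, against 56.3% of tested genes called (28.5% higher, 27.8% lower), and 8 did not overlap, against 66.5% of tested genes. In Setd2 knockout libraries 3 genes were higher and 3 lower than wild type, against 38.6% called (18.7% higher, 19.9% lower), and 8 did not overlap, against 73.1% of tested genes. Median log2 fold changes of the 10 genes were 0.75 for double mutant, 0.65 for Srsf2 mutated and -0.06 for Setd2 knockout, where the medians of all tested genes were 0.13, 0.08 and 0.04. These 3 comparisons share the wild type libraries. Between the double mutant and Srsf2 mutated, which differ by the Setd2 deletion, 5 genes were higher and 0 lower, against 33.8% called (17.8% higher, 15.9% lower), and 5 did not overlap, against 45.4% of tested genes. The 5 were Ly6c2, Fn1, Adgre1, Vcam1 and Cd68. The 5 not called include the 3 C1q genes, for which the fitted differences were negative.

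**Figure D2:**
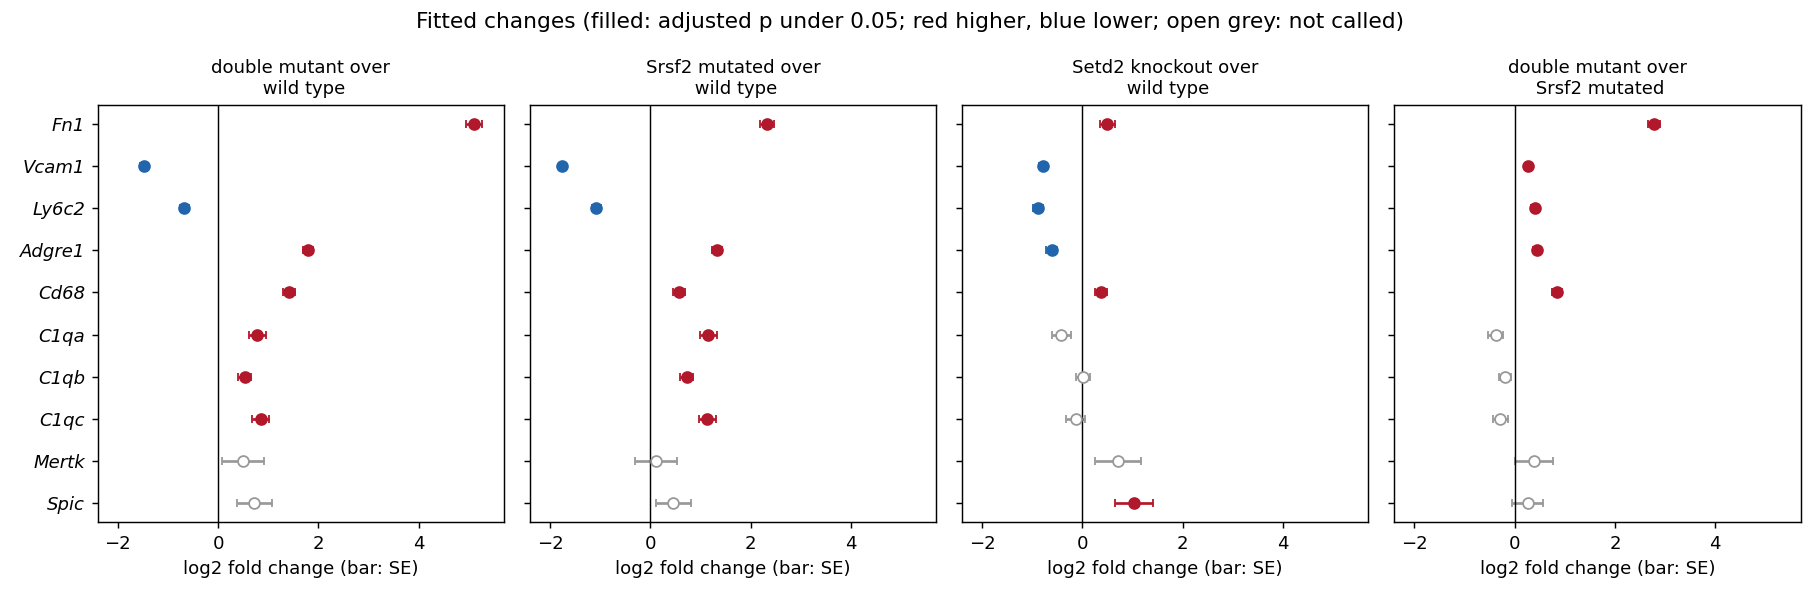
Fitted log2 fold change of each gene (x axis) in 4 comparisons, with bars of 1 standard error, filled red where higher and filled blue where lower at an adjusted p under 0.05, and open grey where not called. Fn1 had the largest value in each comparison in which the double mutant is on top, 5.10 over wild type and 2.78 over Srsf2 mutated.

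Promoters bear on these genes because PU.1, the Spi1 product and a main regulator of monocyte and macrophage genes, binds purine-rich sites with the core GAGGAA, and AP-1, the product of the Fos and Jun families, binds TGANTCA. Spi1 averaged 299 ± 5.52 CPM in double mutant, 263 ± 19.1 CPM in Srsf2 mutated, 179 ± 9.28 CPM in Setd2 knockout and 353 ± 46.2 CPM in wild type. RefSeq promoters (GRCm38.p6) matched 6 of the 10 symbols, with 2 starts for Ly6c2. The windows of Mertk and Spic hold neither motif, and that of C1qc holds GAGGAA on the opposite strand. Those shown were chosen among the windows with a match. The 250 bases before the start are shown for 2 genes that were higher than wild type in both genotypes with mutated Srsf2. These are C1qb (chr4:136886201-136886450, minus strand) and Cd68 (chr11:69666171-69666420, minus strand). Ly6c2, which was lower than wild type in both, is also shown (chr15:75111972-75112221, minus strand). Each is written 5′ to 3′ on the strand of the gene, with capitals marking the letters GAGGAA or TGANTCA.
C1qb: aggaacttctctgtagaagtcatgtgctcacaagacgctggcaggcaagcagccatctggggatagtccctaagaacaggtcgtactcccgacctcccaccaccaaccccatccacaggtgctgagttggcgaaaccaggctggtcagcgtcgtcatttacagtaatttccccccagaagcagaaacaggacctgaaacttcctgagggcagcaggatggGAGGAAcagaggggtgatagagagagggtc
Cd68: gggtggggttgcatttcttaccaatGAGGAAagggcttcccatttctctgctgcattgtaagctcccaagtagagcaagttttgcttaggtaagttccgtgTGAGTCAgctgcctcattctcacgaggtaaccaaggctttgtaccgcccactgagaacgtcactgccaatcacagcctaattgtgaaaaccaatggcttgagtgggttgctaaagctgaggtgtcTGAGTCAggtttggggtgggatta
Ly6c2: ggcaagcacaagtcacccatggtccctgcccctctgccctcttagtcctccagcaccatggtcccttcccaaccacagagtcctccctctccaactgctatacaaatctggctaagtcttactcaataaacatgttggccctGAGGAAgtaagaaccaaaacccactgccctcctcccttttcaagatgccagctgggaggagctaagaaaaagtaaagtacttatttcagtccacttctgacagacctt
The 6 letters GAGGAA begin 30 bases before the start of C1qb, 225 before that of Cd68 and 108 before the start of Ly6c2 that is shown (142 and 8 before its other start), and TGAGTCA begins 149 and 24 bases before that of Cd68. Searched on both strands, GAGGAA is in 23.3% and TGANTCA in 6.75% of 32851 promoter windows of this length. A match describes letters in a window and is no sign that a factor binds there.

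Fn1 (ENSMUSG00000026193, chr1:71585520-71653200, minus strand, GRCm38) encodes fibronectin, an extracellular matrix glycoprotein made by monocytes, macrophages and stromal cells that binds integrins on progenitors. Its level was 592, 579 and 587 CPM in the double mutant libraries, 92.6, 98.8 and 64.2 CPM in Srsf2 mutated, 24.4 and 23.7 CPM in Setd2 knockout, and 17.5 and 16.6 CPM in wild type. No 2 genotypes overlapped, and each step of the order wild type, Setd2 knockout, Srsf2 mutated, double mutant passed the test. The double mutant was 34.4-fold above wild type (log2 5.10 ± 0.158, adjusted p = 2.77e-13 by edgeR) and 6.87-fold above Srsf2 mutated (2.78 ± 0.117, adjusted p = 3.71e-11). Srsf2 mutated libraries were 5.01-fold above wild type (adjusted p = 1.53e-09). Setd2 knockout libraries were 1.41-fold above wild type (0.50 ± 0.147, edgeR adjusted p = 0.0137), a call that ended without Setd2 knockout replicate 1 (adjusted p = 0.0583) or wild type replicate 2 (0.0833). The antisense gene Apol7d overlaps Fn1 but had 1 count in all 10 libraries.

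Fn1 is also made by stromal cells, so their markers were read beside it. Of 16 tested endothelial and stromal genes, 6 were higher and 5 lower in the double mutant than in wild type. Over all tested genes, 33.5% were higher and 29.5% lower. The median log2 fold change of the list was 1.46, where that of all tested genes was 0.13. Summed, the list stood at 167 to 169 CPM in the double mutant against 240 to 265 CPM in wild type. Much of the wild type sum came from Eng and Pecam1, which averaged 102 and 95.5 CPM there. Lum was at 0 in all 10 libraries. Col1a1, the main chain of type I collagen, averaged 5.52 ± 0.465 CPM in the double mutant (n = 3) and 0.541 ± 0.0332 CPM in wild type (n = 2), and Cxcl12, the chemokine of marrow stroma, 5.14 ± 0.572 CPM in the double mutant and 0.423 ± 0.133 CPM in wild type. Others of the list went the other way. Emcn averaged 0.344 ± 0.279 CPM in the double mutant and 1.73 ± 0.183 CPM in wild type. Pecam1 averaged 71.1 ± 2.73 CPM in the double mutant and 95.5 ± 7.45 CPM in wild type. The part of these cells in the Fn1 difference was not tested. By root mean square difference of centred log2 values over the 10 libraries, the genes nearest to Fn1 in pattern were Trpm2 (0.25), Tmcc2 (0.27) and Olfm4 (0.38), which averaged 170, 527 and 637 CPM in the double mutant against 5.97, 22.7 and 21.0 CPM in wild type. No other of the 10 genes came close, the nearest being Adgre1 at 1.27.

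Vcam1 (ENSMUSG00000027962, chr3:116109949-116129688, minus strand) encodes the adhesion molecule that binds integrin α4β1 and is carried by marrow macrophages, endothelium and stroma. It had 43.3, 43.3 and 43.0 CPM in double mutant libraries, 34.3, 37.0 and 36.3 CPM in Srsf2 mutated, 72.5 and 68.0 CPM in Setd2 knockout, and 122 and 120 CPM in wild type. No genotypes overlapped, and wild type was highest. The double mutant was 2.80-fold below wild type (log2 -1.49 ± 0.0715, edgeR adjusted p = 5.61e-11), Srsf2 mutated 3.37-fold below (-1.75 ± 0.0717, 1.34e-11) and Setd2 knockout 1.72-fold below (-0.78 ± 0.0791, 1.62e-06). The double mutant stood 1.203-fold above Srsf2 mutated (0.27 ± 0.0661, edgeR adjusted p = 0.00505), a call that ended without Srsf2 mutated replicate 1 (0.0621). Its nearest genes in pattern were Bcorl1 (0.06), Gpr160 (0.06) and Aatk (0.11), for example 25.6 CPM of Gpr160 in the double mutant and 69.3 CPM in wild type. The antisense gene Gm43109 overlaps Vcam1 and averaged at most 0.0641 CPM in any genotype.

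Receptors of the fibronectin and VCAM1 ligands were followed as a list of integrins, syndecan 4 and their partners. Of 16 tested, 8 were higher and 4 lower in double mutant than in wild type (median log2 0.22), 7 higher and 1 lower in Srsf2 mutated (0.20), and 1 higher and 9 lower in Setd2 knockout (-0.45). Among all tested genes the higher and lower shares were 33.5% and 29.5%, 28.5% and 27.8%, and 18.7% and 19.9%, in that order. The integrin chains Itga4 and Itgb1, which together form the α4β1 receptor of both ligands, averaged 318 and 221 CPM in the double mutant and 287 and 257 CPM in wild type. Sdc4, a heparan sulfate proteoglycan that binds fibronectin, averaged 19.8 ± 1.67 CPM in the double mutant, 50.7 ± 1.69 CPM in Srsf2 mutated, 2.33 ± 0.117 CPM in Setd2 knockout and 3.68 ± 0.416 CPM in wild type. It was 5.39-fold higher in double mutant and 13.8-fold higher in Srsf2 mutated than in wild type (edgeR adjusted p = 7.73e-11 and 1.07e-12). Icam1, another integrin ligand, was 2.59-fold higher in double mutant, 2.51-fold higher in Srsf2 mutated and 1.57-fold lower in Setd2 knockout than in wild type. Itgb3, the β3 chain of the fibronectin and vitronectin receptors, was 1.89-fold lower in Setd2 knockout than in wild type (edgeR adjusted p = 1.65e-05).

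Ly6c2 (ENSMUSG00000022584, chr15:75108158-75111970, minus strand) encodes the Ly6C antigen by which mouse classical monocytes are recognised, and is also expressed by granulocyte-monocyte progenitors. Its level was 794, 698 and 787 CPM in double mutant libraries, 601, 508 and 613 CPM in Srsf2 mutated, 711 and 602 CPM in Setd2 knockout, and 1209 and 1206.5 CPM in wild type. Wild type stood above the other libraries without overlap, whereas Setd2 knockout overlapped both other mutant genotypes. The double mutant was 1.59-fold below wild type (log2 -0.67 ± 0.091, edgeR adjusted p = 9.73e-06), Srsf2 mutated 2.10-fold below (-1.07 ± 0.0908, 7.05e-08) and Setd2 knockout 1.84-fold below (-0.88 ± 0.102, 6.44e-06). The double mutant was 1.32-fold above Srsf2 mutated (0.40 ± 0.0825, edgeR adjusted p = 0.00114), and 0.21 above Setd2 knockout on the log2 scale (95% interval 0.03 to 0.39, adjusted p = 0.0680). That last difference depended on the fit: it was called under 5 other settings, DESeq2 among them (adjusted p = 0.0216), and without any 1 of 3 libraries, and lay between 0.05 (without Setd2 knockout replicate 2) and 0.28 (without Setd2 knockout replicate 1). Ly6c2 shares 13.9% of its 50-base stretches with Ly6c1, so reads could be split between them, and Ly6c1 averaged 0.215 to 0.550 CPM over the genotypes.

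Other classical monocyte genes were read as a list beside Ly6c2. Of 29 tested, 23 were higher and 2 lower in the double mutant than in wild type (median log2 1.005), 14 higher and 5 lower in Srsf2 mutated (0.30), and 3 higher and 16 lower in Setd2 knockout (-0.35). Over all tested genes, 33.5% were higher and 29.5% lower in the double mutant. Those shares were 28.5% and 27.8% in Srsf2 mutated, and 18.7% and 19.9% in Setd2 knockout. Nr4a1, a nuclear receptor required for non-classical monocytes and also an immediate early gene, averaged 221 ± 5.95 CPM in the double mutant, 267 ± 15.8 CPM in Srsf2 mutated and 27.1 ± 14.1 CPM in wild type, 8.13-fold and 9.83-fold differences. The lipopolysaccharide co-receptor Cd14 was 6.70-fold and the galectin Lgals3 6.55-fold higher in the double mutant than in wild type (edgeR adjusted p = 3.42e-11 and 1.43e-09). Klf4, a transcription factor of monocyte differentiation, averaged 148 CPM in Srsf2 mutated against 28.6 CPM in wild type, 5.19-fold higher. In Setd2 knockout, the monocyte chemokine receptor gene Ccr2 was 6.16-fold higher than in wild type (401 ± 24.0 against 65.1 ± 3.33 CPM, edgeR adjusted p = 5.12e-12), whereas the lysozyme gene Lyz2 and the NADPH oxidase gene Cybb were 2.55-fold and 2.48-fold lower. Immediate early and dissociation genes moved with the Srsf2 genotype: of 16 tested, 14 were higher in the double mutant and 15 in Srsf2 mutated than in wild type, against 4 in Setd2 knockout. Their summed level was 8166 to 8245 CPM in the double mutant, 9928 to 10384 CPM in Srsf2 mutated, 2673 to 2794 CPM in Setd2 knockout and 2240 to 3663 CPM in wild type. Their part in the monocyte gene differences was not tested.

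Adgre1 (ENSMUSG00000004730, chr17:57358691-57483527, plus strand) encodes F4/80, the adhesion G protein-coupled receptor used to recognise mouse macrophages. It had 53.3, 54.1 and 54.7 CPM in double mutant libraries, 38.7, 36.8 and 43.1 CPM in Srsf2 mutated, 10.9 and 9.61 CPM in Setd2 knockout, and 16.6 and 14.7 CPM in wild type. Its 4 genotypes did not overlap, and Setd2 knockout was lowest. The double mutant was 3.45-fold above wild type (log2 1.79 ± 0.101, edgeR adjusted p = 4.11e-10) and Srsf2 mutated 2.52-fold above (1.34 ± 0.1001, 1.74e-08), whereas Setd2 knockout was 1.53-fold below (-0.61, 0.000425). Between double mutant and Srsf2 mutated the difference was 1.37-fold (0.45 ± 0.0835, edgeR adjusted p = 0.000501). In pattern its nearest genes were Fcgr4 (0.13), the activating Fc receptor of monocytes and macrophages, the glucose transporter gene Slc2a1 (0.15) and the cytokine gene Tnf (0.15). Tnf averaged 51.7 CPM in the double mutant and 12.04 CPM in wild type.

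Cd68 (ENSMUSG00000018774, chr11:69664213-69666153, minus strand) encodes macrosialin, a glycoprotein of lysosomes and endosomes that is abundant in macrophages. It had 66.6, 62.6 and 62.9 CPM in double mutant libraries, 34.1, 31.8 and 41.2 CPM in Srsf2 mutated, 32.8 and 29.0 CPM in Setd2 knockout, and 26.1 and 21.6 CPM in wild type. The double mutant stood above the other libraries, Srsf2 mutated and Setd2 knockout overlapped each other, and wild type was lowest. Cd68 in the double mutant was 2.68-fold above wild type (log2 1.42 ± 0.118, edgeR adjusted p = 3.67e-08), 1.80-fold above Srsf2 mutated (0.84 ± 0.101, 6.51e-06) and 2.07-fold above Setd2 knockout (1.05 ± 0.115, 1.23e-06). Srsf2 mutated was 1.49-fold above wild type (edgeR adjusted p = 0.000523). The 1.29-fold difference of Setd2 knockout from wild type (edgeR adjusted p = 0.0288) was lost without Setd2 knockout replicate 1 (0.191) or wild type replicate 2 (0.251). Samsn1 was nearest to Cd68 in pattern (0.10), with 143 CPM in the double mutant and 60.0 CPM in wild type.

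C1qa, C1qb and C1qc encode the 3 chains of C1q, the molecule that binds antibody complexes and dying cells and starts the classical complement pathway, and which macrophages and dendritic cells make. They lie next to each other on the minus strand of chromosome 4, C1qa (ENSMUSG00000036887) at chr4:136895917-136898803, C1qc (ENSMUSG00000036896) at chr4:136889804-136893065 and C1qb (ENSMUSG00000036905) at chr4:136880129-136886187. C1qa had 14.1, 16.8 and 14.1 CPM in double mutant libraries, 19.0, 16.3 and 23.2 CPM in Srsf2 mutated, 6.01 and 7.07 CPM in Setd2 knockout, and 7.22 and 10.3 CPM in wild type. C1qb had 14.3, 17.0 and 15.1 CPM in double mutant libraries, 15.5, 18.7 and 19.0 CPM in Srsf2 mutated, 9.92 and 11.7 CPM in Setd2 knockout, and 10.0 and 11.4 CPM in wild type. C1qc had 14.9, 12.95 and 13.5 CPM in double mutant libraries, 20.1, 13.7 and 16.5 CPM in Srsf2 mutated, 6.42 and 7.47 CPM in Setd2 knockout, and 6.45 and 8.80 CPM in wild type. For each chain the libraries with mutated Srsf2 stood above those without it, the double mutant overlapped Srsf2 mutated, and wild type overlapped Setd2 knockout for C1qb and C1qc.

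The double mutant was above wild type 1.72-fold for C1qa, 1.45-fold for C1qb and 1.81-fold for C1qc (edgeR adjusted p = 0.000983, 0.00252 and 0.000432). Srsf2 mutated was above wild type 2.23-fold, 1.65-fold and 2.20-fold (edgeR adjusted p = 3.42e-05, 0.000236 and 3.70e-05). In the fit of all 10 libraries none of the chains was called between genotypes that differ by the Setd2 deletion, in either Srsf2 state, though some were under other settings. Double mutant against Srsf2 mutated gave -0.38 for C1qa (95% interval -0.67 to -0.09, edgeR adjusted p = 0.0606), -0.19 for C1qb (-0.42 to 0.03, 0.222) and -0.28 for C1qc (-0.57 to 0.00, 0.155). The C1qa difference passed under 4 other settings of the fit, among them the fit of these groups alone (adjusted p = 0.0484), and without any 1 of 5 libraries, but was -0.23 (adjusted p = 0.216) without Srsf2 mutated replicate 3. C1qc passed without Srsf2 mutated replicate 2 (-0.41, adjusted p = 0.0352). Setd2 knockout against wild type gave -0.42 for C1qa (edgeR adjusted p = 0.0961), 0.01 for C1qb (0.956) and -0.13 for C1qc (0.608). C1qa there was -0.65 (adjusted p = 0.0271) without wild type replicate 1 and -0.14 (0.670) without wild type replicate 2, and passed with no filter on low counts (0.0326) and without Srsf2 mutated replicate 3 (0.0475). The intervals do not show that the levels are alike.

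**Figure D3:**
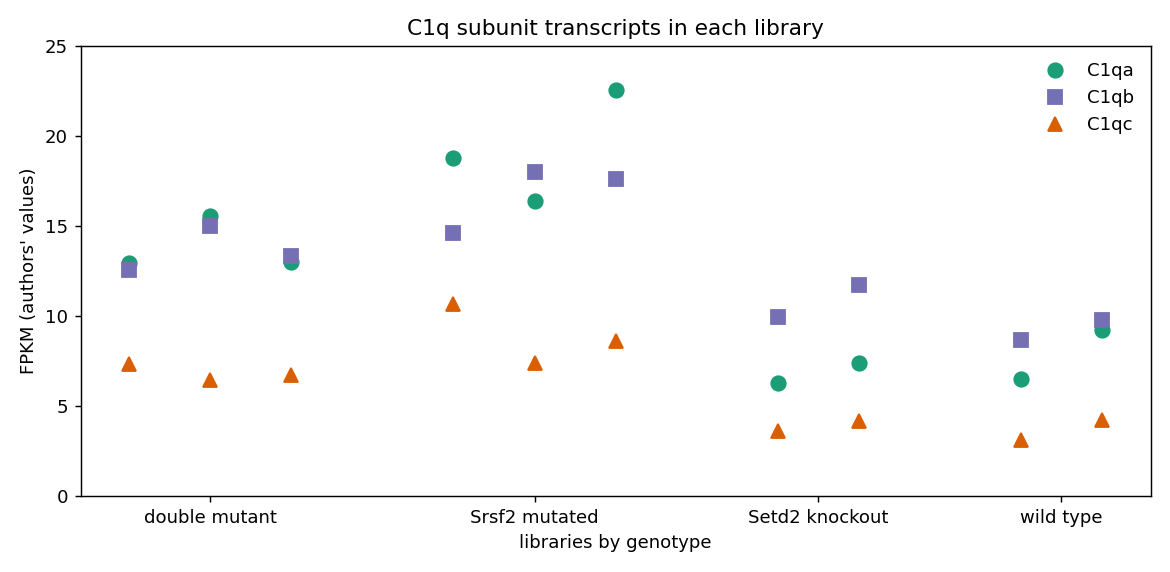
FPKM of C1qa (circles), C1qb (squares) and C1qc (triangles) in each library, from double mutant on the left to wild type on the right. C1qc was the lowest of the 3 in each library. C1qa lay below C1qb in the Setd2 knockout and wild type libraries, and also in double mutant replicate 3 and Srsf2 mutated replicate 2.

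Per length, the C1q transcripts were not equally abundant. The C1qa to C1qb ratio of FPKM was 0.975 to 1.03 in double mutant libraries, 0.912 to 1.29 in Srsf2 mutated, 0.631 to 0.634 in Setd2 knockout and 0.754 to 0.940 in wild type. The C1qc to C1qb ratio was 0.429 to 0.588 in double mutant, 0.412 to 0.731 in Srsf2 mutated, 0.359 to 0.365 in Setd2 knockout and 0.362 to 0.434 in wild type. Summed over the 3 genes, the level was 42.7 to 46.8 CPM in double mutant, 48.7 to 58.7 CPM in Srsf2 mutated, 22.3 to 26.3 CPM in Setd2 knockout and 23.7 to 30.5 CPM in wild type. C1qa and C1qc were each other's nearest among the 10 genes in pattern (0.20). Outside them C1qa was nearest to Ndufs6 (0.14), Gapdh (0.15) and Fzd5 (0.17), which are no macrophage markers.

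C1q works with 2 proteases and the downstream complement proteins. Of 24 tested complement genes and C1q partners, 14 were higher and 3 lower in double mutant than in wild type (median log2 1.05), 7 higher and 4 lower in Srsf2 mutated (0.38), and 3 higher and 9 lower in Setd2 knockout (-0.30). Among all tested genes the higher and lower shares were 33.5% and 29.5%, 28.5% and 27.8%, and 18.7% and 19.9%, in that order. C1ra, the first protease bound by C1q, averaged 7.82 ± 1.08 CPM in the double mutant and 6.86 ± 0.0174 CPM in wild type. The anaphylatoxin receptor gene C3ar1 was 12.2-fold higher in Srsf2 mutated, at 6.64 ± 1.55 against 0.541 ± 0.166 CPM in wild type. Serping1 and Hc, also called in the double mutant, stayed under 0.5 CPM on average. The central component C3 was 3.12-fold lower in Srsf2 mutated and 2.96-fold lower in Setd2 knockout than in wild type, where it averaged 1217 ± 123 CPM. C5ar1, the C5a receptor gene, was 3.94-fold lower in Setd2 knockout than in wild type (7.49 ± 0.540 against 29.5 ± 5.50 CPM), and averaged 126 ± 2.62 CPM in the double mutant.

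Mertk (ENSMUSG00000014361, chr2:128698956-128802894, plus strand) encodes a receptor tyrosine kinase by which macrophages recognise dying cells through the bridging proteins Gas6 and protein S. It had 1.695, 1.27 and 1.055 CPM in double mutant libraries, 0.612, 1.63 and 0.785 CPM in Srsf2 mutated, 1.69 and 1.40 CPM in Setd2 knockout, and 0.870 and 1.01 CPM in wild type. Srsf2 mutated was the most scattered and overlapped each other genotype, and the double mutant and Setd2 knockout did not overlap wild type. No comparison was called in the fit of all 10 libraries. Without Srsf2 mutated replicate 2, Srsf2 mutated was called below Setd2 knockout (log2 -1.14, edgeR adjusted p = 0.0254). The double mutant differed from wild type by 0.50 on the log2 scale (95% interval -0.34 to 1.33, edgeR adjusted p = 0.322), which leaves a difference in either direction within the interval at this depth. Axl, a related receptor, averaged 19.2 ± 1.55 CPM in the double mutant and 19.0 ± 3.02 CPM in wild type, and the bridging protein gene Gas6 was higher in Srsf2 mutated (3.71 ± 0.431 against 1.46 ± 0.133 CPM, edgeR adjusted p = 0.000524). Of 27 tested efferocytosis genes, 12 were higher and 8 lower in double mutant than in wild type (median log2 0.22, against 33.5% higher and 29.5% lower of all tested genes), 11 higher and 8 lower in Srsf2 mutated (0.18), and 3 higher and 13 lower in Setd2 knockout (-0.46). Over all tested genes, 28.5% were higher and 27.8% lower in Srsf2 mutated, and 18.7% and 19.9% in Setd2 knockout. The scavenger receptor gene Cd36 was higher in all 3: 69.3-fold in double mutant (91.5 ± 5.43 against 1.32 ± 0.000157 CPM), 31.4-fold in Srsf2 mutated and 3.48-fold in Setd2 knockout. Cd300lf, a receptor for phosphatidylserine, averaged 195 ± 4.17 CPM in the double mutant and 17.7 ± 3.69 CPM in wild type. Anxa1, which codes for the resolution mediator annexin A1, was 1.998-fold lower in Setd2 knockout than in wild type.

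Spic (ENSMUSG00000004359, chr10:88674772-88685015, minus strand) encodes an Ets-family transcription factor, related to PU.1, that is required for red pulp and bone marrow macrophages that recycle iron and is induced by heme. Its level was 1.79, 2.12 and 1.51 CPM in double mutant libraries, 1.61, 0.968 and 1.97 CPM in Srsf2 mutated, 2.53 and 1.95 CPM in Setd2 knockout, and 0.941 and 1.25 CPM in wild type. Setd2 knockout and double mutant did not overlap wild type, while neighbouring levels in the order overlapped. The 2.04-fold difference of Setd2 knockout from wild type (log2 1.03 ± 0.372, edgeR adjusted p = 0.0388) was lost on leaving out any 1 of Setd2 knockout replicates 1 and 2 (0.223 and 0.0603) and wild type replicates 1 and 2 (0.206 and 0.0733). Double mutant against wild type gave 0.72 ± 0.348 (edgeR adjusted p = 0.0818).

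Of 25 tested genes of Spic regulation and iron recycling, 17 were higher and 6 lower in double mutant than in wild type (median log2 1.11), 12 higher and 8 lower in Srsf2 mutated (0.14), and 4 higher and 7 lower in Setd2 knockout (0.01). Over all tested genes, 33.5% were higher and 29.5% lower in the double mutant. Those shares were 28.5% and 27.8% in Srsf2 mutated, and 18.7% and 19.9% in Setd2 knockout. Bach1, the heme-sensing repressor that acts on Spic, averaged 167 ± 5.97 CPM in double mutant, 122 ± 13.01 CPM in Srsf2 mutated, 71.9 ± 5.37 CPM in Setd2 knockout and 71.6 ± 0.690 CPM in wild type. Irf4, a partner of Ets factors, was 19.1-fold higher in double mutant and 30.1-fold higher in Srsf2 mutated than in wild type, where it averaged 3.70 ± 0.981 CPM. Blvrb, which codes for a biliverdin reductase also present in red cell precursors, was 3.07-fold higher in Setd2 knockout than in wild type (edgeR adjusted p = 9.65e-08). Hmox1, the heme-degrading oxygenase, averaged 42.9 ± 2.05 CPM in the double mutant and 15.5 ± 2.69 CPM in wild type, and the iron exporter Slc40a1 90.5 ± 0.803 CPM in the double mutant and 88.5 ± 0.206 CPM in wild type. Erythroid marker genes were higher in 15 of 15 cases in the double mutant, 9 of 15 in Srsf2 mutated (3 lower) and 14 of 15 in Setd2 knockout, each against wild type. Their summed level was 22270 to 23799 CPM in double mutant, 6374 to 8103 CPM in Srsf2 mutated, 2202 to 2215 CPM in Setd2 knockout and 724 to 749 CPM in wild type. Their part in these differences was not tested.

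Resident macrophage genes outside the 10 were checked as a list against the name of the set. Of 26 tested, 15 were higher and 3 lower in double mutant than in wild type (median log2 0.95), 13 higher and 5 lower in Srsf2 mutated (0.60), and 2 higher and 8 lower in Setd2 knockout (-0.16). Among all tested genes the higher and lower shares were 33.5% and 29.5%, 28.5% and 27.8%, and 18.7% and 19.9%, in that order. The summed level of the list was 1914 to 1923 CPM in double mutant, 1510 to 1708 CPM in Srsf2 mutated, 964 to 1028 CPM in Setd2 knockout and 1442 to 1528 CPM in wild type. Slc11a1, the metal transporter of phagosomes, was 16.2-fold and 7.61-fold higher in double mutant and Srsf2 mutated than in wild type, at 68.5 ± 3.26, 32.2 ± 2.19 and 4.23 ± 0.698 CPM. The tetraspanin gene Cd63 was 2.19-fold lower in Setd2 knockout than in wild type. Several genes that define tissue-resident macrophages were at or near 0: Marco had 17 counts in the double mutant and 0 in each other genotype, and Vsig4, Timd4 and Folr2 averaged under 0.3 CPM in each genotype. Cd163, the hemoglobin scavenger receptor, averaged 8.89 ± 0.663 CPM in double mutant, 10.2 ± 1.30 CPM in Srsf2 mutated, 17.0 ± 0.341 CPM in Setd2 knockout and 14.3 ± 0.783 CPM in wild type. Other genes of the list averaged higher in the double mutant than in wild type. These included Mrc1 (15.6 against 9.62 CPM), Siglec1 (8.30 against 4.78 CPM) and Cd5l (5.84 against 2.36 CPM).

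**Figure D4:**
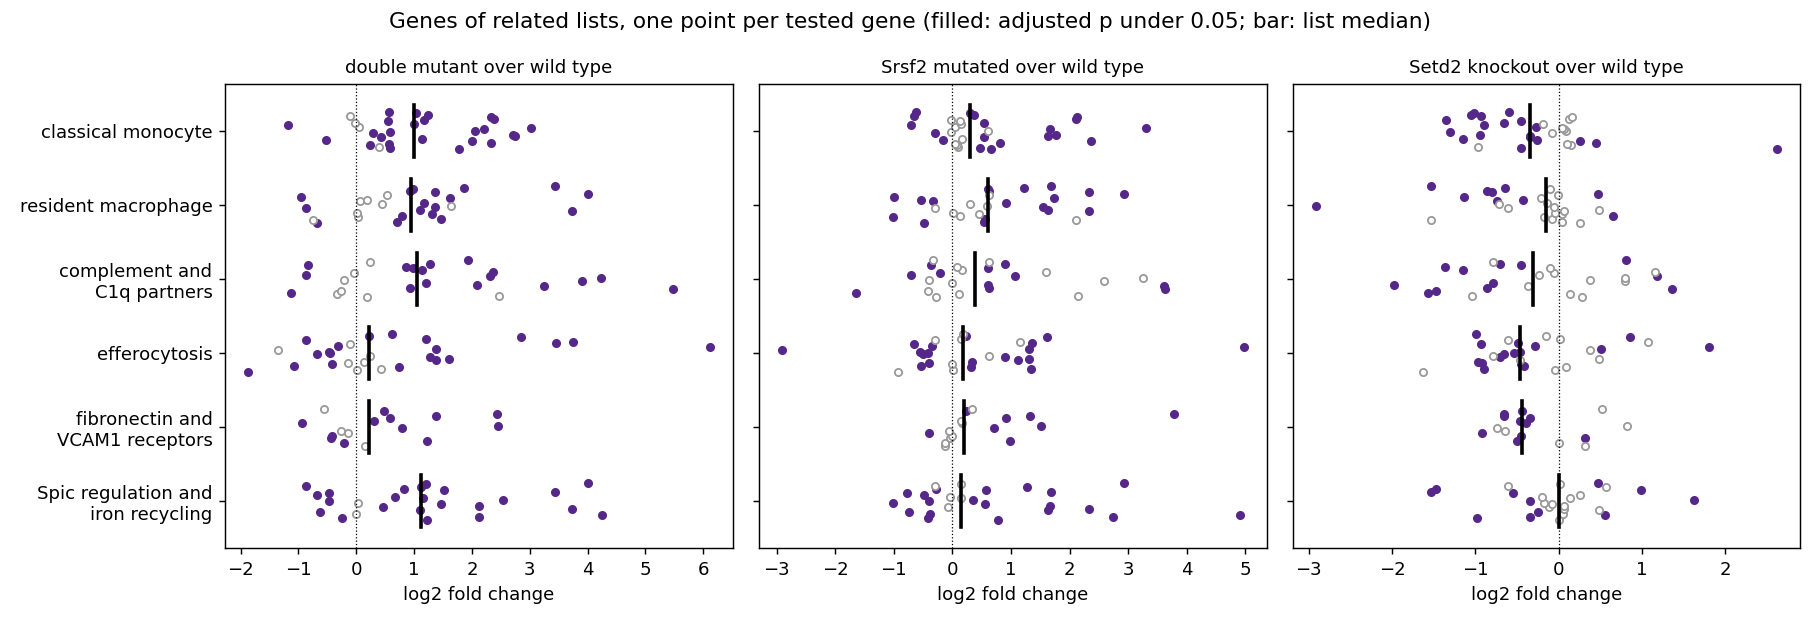
Log2 fold change over wild type (x axis) of each tested gene in 6 related lists, for double mutant, Srsf2 mutated and Setd2 knockout, with filled points at an adjusted p under 0.05, open points not called, and a bar at the list median. Medians of the classical monocyte list were 1.005, 0.30 and -0.35 in these 3 panels.

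Other cell types changed in the same libraries. HSPC markers fell in 12 of 14 tested genes in double mutant against wild type, where 29.5% of all tested genes were lower. HSPC markers summed to 1223 to 1233 CPM in double mutant, 1493 to 1547 CPM in Srsf2 mutated, 2015 to 2047 CPM in Setd2 knockout and 2121 to 2235 CPM in wild type. Neutrophil markers summed to 42011 to 43002 CPM in double mutant, 23401 to 28357 CPM in Srsf2 mutated, 19326 to 20888 CPM in Setd2 knockout and 41479 to 48532 CPM in wild type. Of 16 tested neutrophil genes, 11 were higher and 4 lower in double mutant than in wild type (median log2 0.76). Over all tested genes, 33.5% were higher and 29.5% lower there. Neutrophil genes were lower in 16 of 16 cases in Setd2 knockout against wild type (19.9% of all tested genes were), beside the lower Ly6c2 there. B lymphoid markers summed to 356 to 370 CPM in double mutant, 1341 to 1449 CPM in Srsf2 mutated, 146 to 148 CPM in Setd2 knockout and 198 to 223 CPM in wild type. The part of these shifts in the levels of the 10 genes was not tested.

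The design also allows the change with Setd2 deletion to be compared between Srsf2 mutated and normal Srsf2 cells, as a single contrast. It was positive for 5 of the 10 genes and negative for 0 at an adjusted p under 0.05, against 31.9% of tested genes called (16.7% positive, 15.2% negative). Fn1 changed with Setd2 deletion by 2.78 (log2) in Srsf2 mutated cells and by 0.50 in cells with normal Srsf2, a difference of 2.28 ± 0.185 (edgeR adjusted p = 1.43e-07). The double mutant therefore stood 5.10 above wild type, where the sum of the single changes is 2.82. For Ly6c2, deletion went with 0.40 in Srsf2 mutated and -0.88 in normal Srsf2 cells, a difference of 1.28 ± 0.131 (edgeR adjusted p = 1.65e-06). Vcam1 had 0.27 in Srsf2 mutated and -0.78 in normal Srsf2 cells, differing by 1.05 ± 0.103 (edgeR adjusted p = 1.12e-06), and Adgre1 had 0.45 in Srsf2 mutated and -0.61 in normal Srsf2 cells, differing by 1.06 ± 0.139 (edgeR adjusted p = 2.23e-05). These 3 genes were higher with Setd2 deletion in Srsf2 mutated cells and lower with it in normal Srsf2 cells, each called in the edgeR fit. Ly6c2 and Vcam1 were thus less far below wild type in the double mutant (-0.67 and -1.49) than their summed single changes (-1.95 and -2.53). The authors' deposited comparison of double mutant with Srsf2 mutated called none of these 3 genes. The edgeR call for Vcam1 in Srsf2 mutated cells was lost without Srsf2 mutated replicate 1 (adjusted p = 0.0621). In normal Srsf2 cells, Setd2 deletion and sex-linked state cannot be told apart.

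For Cd68 the difference was 0.47 ± 0.160 (edgeR adjusted p = 0.0334), and this call was lost with upper-quartile scaling (0.33, adjusted p = 0.127) and without any 1 of 8 libraries. The 2 libraries whose removal left it were Srsf2 mutated replicate 3 and wild type replicate 2. C1qa, C1qb, C1qc, Mertk and Spic were not called (0.04, -0.21, -0.15, -0.32 and -0.77). For C1qa the double mutant stood 0.78 above wild type, where the single changes sum to 0.74.

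**Figure D5:**
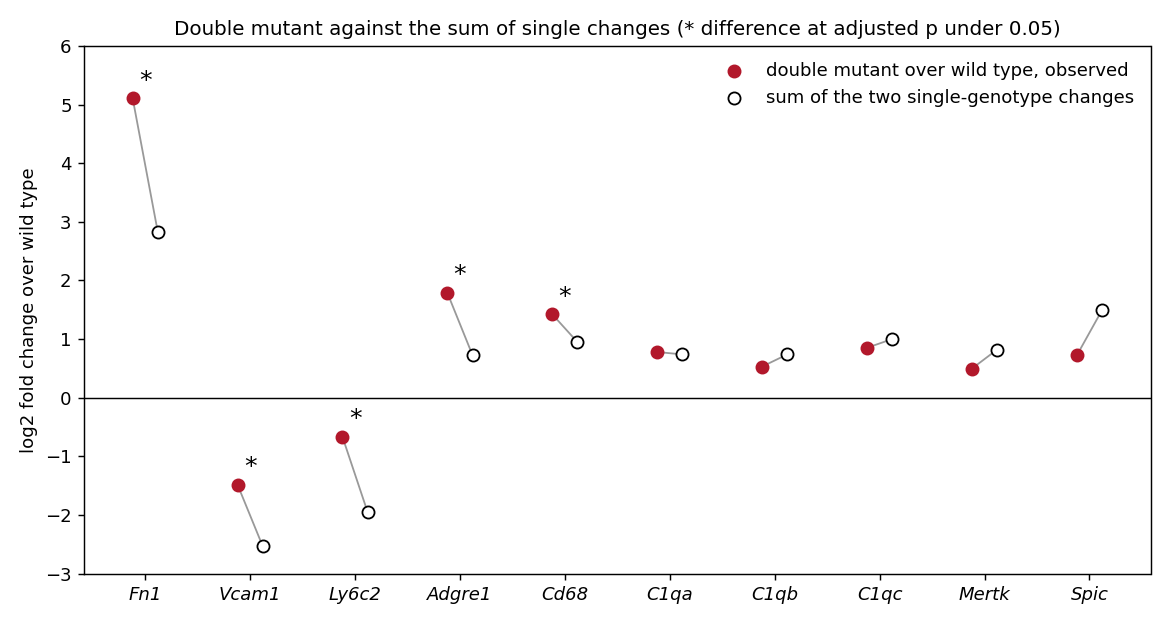
Log2 fold change of the double mutant over wild type (filled) beside the sum of the changes of Srsf2 mutated and Setd2 knockout over wild type (open) for each gene, with an asterisk where they differ at an adjusted p under 0.05. The filled point is above the open one for Fn1, Vcam1, Ly6c2, Adgre1 and Cd68.

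Against Setd2 knockout, which unlike both genotypes with mutated Srsf2 had no Ddx3y counts, the double mutant had 6 of the 10 genes higher and 1 lower, with 51.8% of tested genes called (26.0% higher, 25.8% lower), and 7 did not overlap, against 73.5% of tested genes. Fn1 was 24.4-fold, Adgre1 5.27-fold and C1qa 2.30-fold higher, and Vcam1 was 1.63-fold lower. C1qb was 1.43-fold higher (edgeR adjusted p = 0.00367), which was lost without Setd2 knockout replicate 1 (0.128). Srsf2 mutated against Setd2 knockout gave 5 higher and 1 lower, with 46.3% called (23.1% higher, 23.2% lower), and 6 did not overlap, against 64.0% of tested genes. Fn1 was 3.54-fold, C1qa 2.98-fold and C1qc 2.41-fold higher there, and Vcam1 1.96-fold lower.

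In the authors' deposited table for Setd2 knockout against wild type, 3 of the 10 genes had an adjusted p under 0.05 and a higher level and 3 a lower one, where 38.3% of the 19289 genes tested here were called in it (18.6% higher, 19.7% lower). The authors' deposited table for Srsf2 mutated against wild type had 6 higher and 2 lower, where 55.4% of these genes were called (29.5% higher, 26.0% lower). In the authors' deposited table for double mutant against Srsf2 mutated, 2 genes were called, Fn1 (log2 fold change 2.71, adjusted p = 8.63e-13) and Cd68 (0.77, 0.000457), where the edgeR fit of all 10 libraries called 5. Of these 19289 genes 7.51% were called in the authors' deposited table for that comparison (4.85% higher, 2.66% lower), against 33.8% in the edgeR fit. There the authors' deposited table gives Adgre1 0.38 with a standard error of 0.243, and Ly6c2 0.33 with a standard error of 0.425.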

How the data were processed

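RNA-seq was measured in 10 bulk HSPC libraries. Sequencing was on a NovaSeq, per the labels. The submitters' processing notes name the aligners STAR 2.6.1a and HISAT2 2.0.5, the counters featureCounts 2.0.1 and HTSeq 0.9.1, and DESeq2 1.22.2, without saying which made these tables, and the build GRCm38. The authors deposited 3 tables, each of a pair of genotypes, which per the file headers hold a read count per gene and library, FPKM, and a log2 fold change with its standard error, p-value and adjusted p-value. The deposited FPKM equalled the count divided by gene length and library total. Neither the strandedness nor the counting options are given in the sources used here. Counts of the 5 libraries present in a pair of tables were the same in each.

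Counts of the 10 libraries were joined, filtered with filterByExpr (edgeR 4.0.16, R 4.3.3), scaled by TMM and fitted by quasi-likelihood with a term per genotype. Calls were made at an adjusted p under 0.05 (Benjamini-Hochberg over all tested genes). The 95% intervals came from the standard error by a normal approximation, so they are somewhat narrower than the test implies. For Spic in double mutant against wild type the interval was 0.04 to 1.41, where the edgeR unadjusted p was 0.0550. The fit was tested on simulated counts. Replicates were not duplicates, since their counts differed by more than sampling noise. Of the gene IDs, 55240 of 55421 were in GENCODE M21, which gave the coordinates. Likeness of pattern is the root mean square difference of log2(CPM + 0.25), centred on the mean of the 4 group means, over the 10 libraries, with the 3 nearest genes named of those averaging at least 1/4 of the gene's own mean, without predicted models and immunoglobulin segments. From each of 6 related lists the text names up to 3 called genes with the largest change against wild type. A few genes that this rule selects are not reported here. Bach1, Itga4, Itgb1, C1ra, Axl, Gas6 and Spi1 were named from the lists after their values were seen. So were Hmox1, Slc40a1, Csf1r, Cd163, Marco, Vsig4, Timd4, Folr2, Mrc1, Siglec1 and Cd5l. The 10 genes and the lists were chosen with earlier results of these data known. Alternatives were other scalings (RLE and upper quartile), no filter, a filter of 50 counts in 2 libraries, fits of the groups compared alone, a replicate block, DESeq2 1.42.0, and leaving out each library. Nothing was computed from the 3 single-cell samples.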

Additional observations from a re-analysis of the deposited data

Results flagged for a closer look

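For 5 of the 10 genes, the change with Setd2 deletion in Srsf2 mutated cells differed from that in cells with normal Srsf2, by a test of the difference itself (edgeR quasi-likelihood test of the contrast over 10 libraries, Benjamini-Hochberg adjustment). The difference of the log2 changes was 2.28 for Fn1, 1.28 for Ly6c2, 1.06 for Adgre1, 1.05 for Vcam1 and 0.47 for Cd68. Of all tested genes 31.9% were called in this contrast. The first 4 were called under each alternative run, including without each library in turn (2.12 to 2.40 for Fn1, 1.12 to 1.36 for Ly6c2, 0.93 to 1.14 for Adgre1 and 0.96 to 1.07 for Vcam1), while the Cd68 call was lost under several. Xist averaged 0.598 CPM in Setd2 knockout and 485 CPM in wild type libraries, so Setd2 deletion and sex-linked state cannot be told apart on the normal Srsf2 side of this contrast.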

How the results depend on the processing

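Over the alternatives other than leaving out a library, 464 of the values of single genes kept their direction and side of the threshold, 12 passed it newly, 2 lost it and 2 turned in sign. Those that turned were the C1qa difference between Srsf2 states, at -0.0067 with the stricter filter and -0.10 with upper-quartile scaling, against 0.04. The 2 lost calls were Spic in Setd2 knockout against wild type with the replicate block (1.02, edgeR adjusted p = 0.0553) and Cd68 between Srsf2 states with upper-quartile scaling (0.33, 0.127). Equal replicate numbers did not pair the libraries (13 pairs, correlations from -0.03 to 0.04), and the block newly called C1qa in double mutant against Srsf2 mutated (-0.38, 0.0487) and Ly6c2 in Srsf2 mutated against Setd2 knockout (-0.23, 0.0176). Upper-quartile scaling gave 4275 higher and 2911 lower genes in Setd2 knockout against wild type (3603 and 3846 with TMM), and 2438 positive and 4039 negative between Srsf2 states (3229 and 2931), moving the median there to -0.21, a shift of over 0.1 from -0.07.

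On leaving out each library in turn, the number of the 10 genes called in Setd2 knockout against wild type ranged from 3 to 7 (main count 6), with 3 without Setd2 knockout replicate 1 and 3 without wild type replicate 2, and all genes called from 4792 (without Setd2 knockout replicate 1) to 8803 (main count 7449). Calls for the 10 genes ranged from 8 to 9 in double mutant, and remained 8 in Srsf2 mutated, against wild type, and from 4 to 7 in double mutant against Srsf2 mutated. Values that turned in sign were not called in any of these fits: C1qb (-0.11 to 0.14) and C1qc (-0.34 to 0.11) in Setd2 knockout against wild type, Mertk in Srsf2 mutated against wild type (-0.43 to 0.38), and between Srsf2 states C1qa (-0.24 to 0.27), C1qc (-0.39 to 0.057) and Mertk (-0.64 to 0.22). The cause was not tested. With 2 libraries in 2 of the genotypes, leaving out 1 assumes that the other varies like the rest, and levels near 1 CPM (Mertk, Spic) limit what could be called.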

Other observations

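Dendritic cell and eosinophil, basophil and mast cell markers, which share some genes with macrophages, were also read in these libraries. Among all tested genes, 33.5% were higher and 29.5% lower in double mutant than in wild type. Of 15 tested dendritic cell genes, 12 were higher and 1 lower in double mutant than in wild type, with summed levels of 236 to 249 CPM in double mutant and 221 to 227 CPM in wild type. Of 14 tested eosinophil, basophil and mast cell genes, 10 were higher and 3 lower in double mutant than in wild type, at summed levels of 2233 to 2295 CPM in double mutant, 2140 to 2627 CPM in Srsf2 mutated, 409 to 416 CPM in Setd2 knockout and 1096 to 1242 CPM in wild type. Megakaryocyte genes were lower in 6 of 10 and higher in 0, and T and NK cell genes higher in 9 of 12 and lower in 1, in the double mutant against wild type. T and NK cell markers summed to 173 CPM in each double mutant library, against 390 to 423 CPM in wild type, where Nkg7 alone averaged 396 CPM. The median log2 fold change of that list was 2.36. Within it, Cd3e and Trac averaged 1.42 and 2.79 CPM in the double mutant against 0.0118 and 0.0470 CPM in wild type. Csf1r, the receptor for the macrophage growth factor, averaged 219 ± 7.16 CPM in double mutant, 203 ± 8.77 CPM in Srsf2 mutated, 106 ± 5.18 CPM in Setd2 knockout and 146 ± 1.48 CPM in wild type.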
